A study of Mus musculus with 16 samples.

Results

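The mRNAs described here carry gene symbols of the eukaryotic translation initiation factors. The core factors bring the small ribosomal subunit and the initiator tRNA to the start codon of an mRNA. The symbols also cover proteins with other roles, such as the eIF4E-binding proteins, Eif4a3, Eif5a and Eif6, and counts below include these. The mRNAs were taken by gene symbol: every symbol that begins with Eif1 to Eif6, apart from the Eif2ak kinases, with at least 10 counts in 4 of the 8 input and 4 of the 8 footprint libraries. All 47 matching symbols passed that minimum, out of 9529 genes that passed it and 13832 in the table. They were read in 5 groups: 12 eIF3 subunits, 9 genes of eIF2 and eIF2B, 11 eIF4 factors, 4 eIF4E-binding proteins and 11 remaining genes (of eIF1, eIF1A, eIF2A, eIF2D, eIF5, eIF5A, eIF5B and eIF6, and Eif1ad).

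The cells were RAW264.7, an established mouse macrophage-like line that responds to bacterial lipopolysaccharide (LPS) through Toll-like receptor 4. They were left untreated or given LPS at 100 ng/ml for 15, 30, 45, 60, 75 or 90 min, or for 16 h. From each lysate, 1 library was made from cytoplasmic RNA fragmented by alkali (input) and 1 from the mRNA fragments that ribosomes protect from RNase I in the monosome fraction (footprints), with cycloheximide in the wash and the lysis buffer to hold ribosomes in place. That gives 16 libraries in 16 groups of 1, so no difference between 2 libraries has a replicate check. The untreated cells were sampled once only, and LPS therefore cannot be told apart from handling or time in culture.

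In the canonical pathway, eIF2 carries the initiator tRNA and GTP to the small subunit, and eIF2B recharges eIF2 with GTP after each round. The large complex eIF3, with eIF1, eIF1A and eIF5, completes the scanning particle, while the cap-binding protein eIF4E, the scaffold eIF4G and the helicase eIF4A (together eIF4F) recruit the mRNA. The 4E-binding proteins hold eIF4E away from eIF4G until the kinase mTORC1 phosphorylates them. Some mRNAs of the translation machinery begin with a C and a run of pyrimidines at the cap, the 5′ terminal oligopyrimidine (TOP) tract, which makes their ribosome loading depend on mTORC1 and the cap-proximal binder LARP1. The initiation factors listed for this work as textbook TOP mRNAs are Eif3e, Eif3f, Eif3h and Eif4b, a short list that need not be complete.

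Every library summed to between 6702930 and 6702932 counts, so the totals carry no information on the original depth. Levels below are CPM, a gene's counts relative to the total of its library, after TMM scaling of all 16 libraries together. TMM moved the median gene by up to 0.28 log2 from its value under scaling by total counts, at 90 min in footprints. All 10 macrophage markers listed for these cells were present in every library, with a summed level of 2895 to 6918 CPM. Of these, Mrc1 (1.70 to 3.47 CPM of input) and Itgam (2.45 to 10.0 CPM of input) were low. Of the 5 osteoclast markers, 4 were in the table, summing to 11.4 to 46.3 CPM (Dcstamp was at 9.22 CPM of input untreated and 37.4 at 16 h). Only 1 of 5 lymphocyte, 1 of 5 fibroblast and 2 of 4 epithelial markers were in the table, and they summed to at most 0.95 CPM. The part of such markers in the results below was not tested. In these bulk cultures, fewer cells of a kind and less RNA per cell cannot be told apart. The initiation factor mRNAs made up 1.62% of input counts in untreated cells (95% Wilson interval 1.61 to 1.63, counting error only), 1.79% at 90 min (1.78 to 1.80) and 1.52% at 16 h (1.51 to 1.53). Their share of footprint counts was 1.98% untreated (1.97 to 1.99), 2.17% at 90 min (2.16 to 2.18) and 1.77% at 16 h (1.76 to 1.78).

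The first comparison asked how the 3 main groups moved during the first 90 min. In footprints, 9 of 12 eIF3 subunits rose, against 3 of 9 eIF2 and eIF2B genes and 5 of 11 eIF4 factors, and none of these 32 fell. A rise or a fall over 0 to 90 min is a curve that passed a joint test of its linear and quadratic terms. Its direction is the sign of its largest departure. The adjusted p of an early change thus tests the whole curve and not the printed size and SE. The size used here is the largest departure of a smooth fitted curve from its value at 0 min, in log2 units. Its median was 0.43 for eIF3, 0.26 for eIF2 and eIF2B and 0.29 for the eIF4 factors, beside -0.07 for all genes tested; the difference between groups was not tested. Over all 47 mRNAs, 22 rose and 1 fell in footprints, where 12.7% of all tested genes rose and 9.13% fell (edgeR quasi-likelihood test, Benjamini-Hochberg adjusted over all 9529 genes, threshold 0.05). With libraries scaled by total counts the split over the 47 became 10 higher and 8 lower; eIF3 then had 3 higher and none lower with a median of 0.21, the eIF4 factors 2 higher and 2 lower with a median of -0.13, and eIF2 with eIF2B 1 higher with a median of -0.12. Without the untreated library, which leaves the value at 0 min to be extrapolated, 11 were higher and 2 lower, with 4 eIF3 subunits, 1 gene of eIF2 and eIF2B and 3 eIF4 factors higher.

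In input RNA, 15 of the 47 rose and 2 fell over 0 to 90 min, beside 15.2% and 11.9% of all tested genes, with a median of 0.17 against -0.04. Among the groups, 4 of 12 eIF3 subunits rose and 1 fell, 2 of 9 eIF2 and eIF2B genes rose, and 5 of 11 eIF4 factors rose and 1 fell. Of the 15 input mRNAs that rose, 10 also rose in footprints, which is 10 of the 22 that rose there. The same overlap over all tested genes was not counted, so 10 of 15 has no background to be set against. Scaling by total counts gave 12 higher and 6 lower in input, with 3 of the eIF3 subunits on each side, and leaving out the 90 min library gave 10 higher and 1 lower. Which material had more risers turned with the processing: input had 12 against 10 in footprints under total counts, 18 against 16 with a linear time term alone and 14 against 11 without the untreated library.

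Ribosome density, which sets footprints against input of the same lysate, was compared next. It rose for 5 mRNAs and fell for none, beside 1.14% and 0.136% of all tested genes: 3 of 12 eIF3 subunits (Eif3f, Eif3h, Eif3k), 2 of 11 eIF4 factors (Eif4b, Eif4a2) and 0 of 9 eIF2 and eIF2B genes. For eIF2 and eIF2B the unadjusted p was also below 0.05 for 0 genes, and DESeq2 called none. The median density change was 0.37 for eIF3, 0.15 for eIF2 and eIF2B, 0.06 for the eIF4 factors and -0.05 for all genes tested. Under total counts the eIF2 and eIF2B median turned to -0.06 and the eIF4 median to -0.22, while that of eIF3 was 0.25. The eIF4 median was also below 0 under the DESeq2 test and size factors (-0.15 in each), with the square root of time (-0.13) and without the 15 min (-0.14), 60 min (-0.13) or 90 min (-0.10) pair. That of eIF3 was 0.22 without the untreated pair and 0.23 with a linear term alone. Read library by library, 10 of 12 eIF3 subunits were above their untreated density at 15 min, 11 at 30 min and 11 at 90 min, which are counts against 1 shared untreated pair. The count of 5 fell to 0 without the untreated pair, to 3 without the 75 min pair and to 1 (Eif4b) with a linear term alone, and rose to 11 (9 higher, 2 lower) without the 30 min pair.

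**Figure D1:**
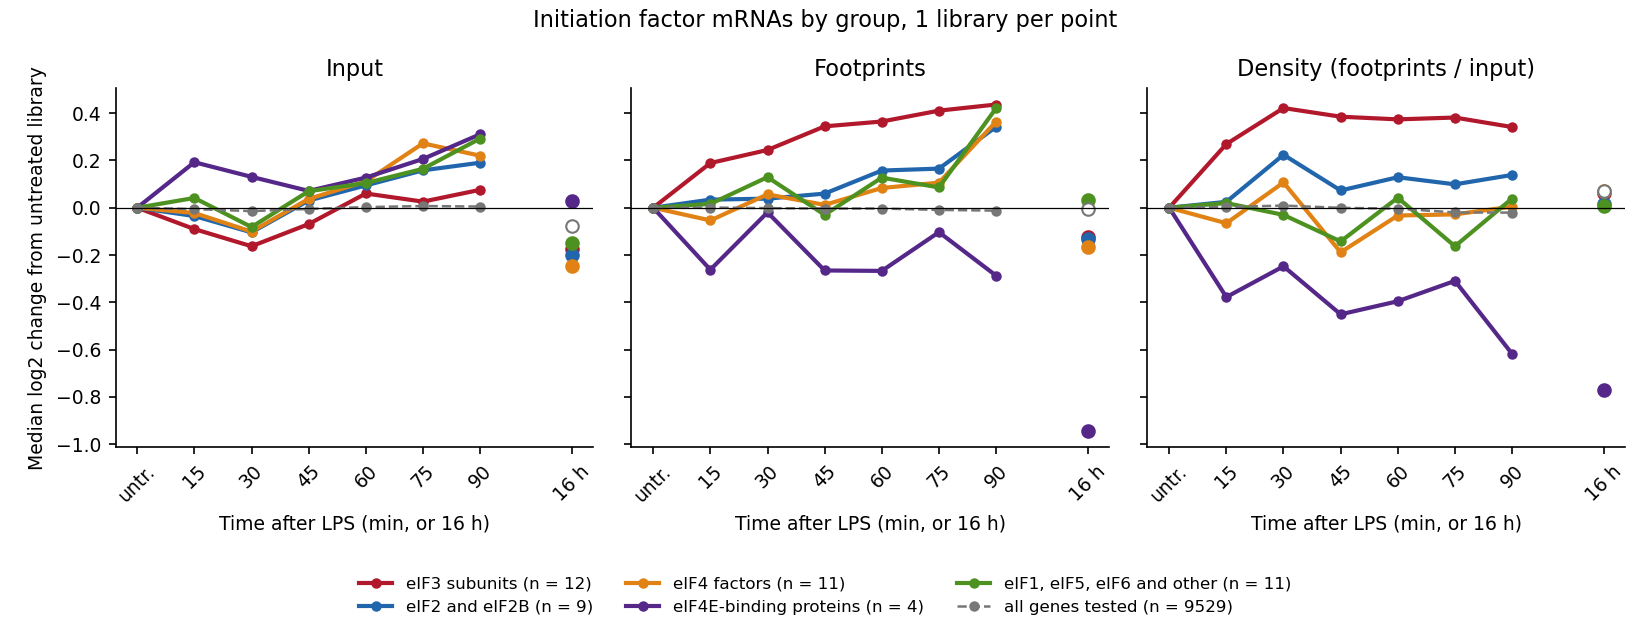
Median log2 change from the untreated library (y axis) at each time (x axis, minutes or 16 h) for the 5 groups and for all 9529 tested genes (dashed), in input, footprints and density, with 1 library per material and time. The eIF3 median lies above the other groups in density at every time up to 90 min, peaks at 0.42 at 30 min and is 0.06 at 16 h, while the median of the 4 eIF4E-binding genes is below 0 in density at every time.

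The 4 textbook TOP mRNAs, 3 eIF3 subunits and Eif4b, had larger median footprint and density changes than the groups they belong to. In footprints 4 of 4 rose (median 0.77), where 12.7% of all tested genes rose. In input 0 rose and 1 fell, beside 15.2% and 11.9% of all tested genes, and that 1 call, Eif3h, was lost under DESeq2. In density 3 of 4 rose (median 0.94), beside 1.14% of all tested genes, a count that was 0 without the untreated pair and 1 with a linear term alone. These 4 were listed with earlier results of these data known, and their difference from the groups was not tested. Eif3f, the MPN-domain subunit eIF3f, had the largest density change of the 47.

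For Eif3f (chr7:108934417-108942951, plus strand, GRCm38), footprints were 283 CPM in untreated cells, 422 at 15 min, 536 at 30 min, 542 at 45 min, 564 at 60 min, 570 at 75 min, 559 at 90 min and 193 at 16 h. Input was 355 CPM untreated, between 310 and 358 from 15 to 90 min, and 272 at 16 h. All 6 LPS footprint libraries up to 90 min lay above the untreated one, the 15 min library was the lowest of the 6, and the 16 h library lay below all the others. Its density rose by 1.17 ± 0.12 log2 (SE, adjusted p = 0.000108) and its footprints by 0.98 ± 0.11 (adjusted p = 2.82e-05), while input changed by -0.18 ± 0.07 (adjusted p = 0.127). Changes given for 16 h, here and below, are against the fitted value at 0 min and not against the untreated library. The input and footprint fits were scaled within each material, unlike CPM, so a sign can differ from that of the CPM values. At 16 h the footprints (-0.64 ± 0.13, adjusted p = 0.000499) and input (-0.31 ± 0.08, adjusted p = 0.00552) of Eif3f were lower, with a density difference of -0.25 ± 0.15 (adjusted p = 0.592). Without the untreated library the density call (adjusted p = 0.395) and the input call at 16 h (adjusted p = 0.0566) were lost. A linear time term alone ended the calls in density (0.86, adjusted p = 0.341), early footprints (adjusted p = 0.0508) and input at 16 h (adjusted p = 0.0605).

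Eif4b (chr15:102073773-102097173, plus strand) encodes an RNA-binding cofactor of the eIF4A helicase. Its footprints were 729 CPM untreated, 864 at 15 min, then 1173, 1157, 1226, 1212 and 1233 from 30 to 90 min, and 446 at 16 h. Input was 1139 CPM untreated and 958 at 90 min, which did not pass (-0.21 ± 0.07, adjusted p = 0.0795), and stood at 658 at 16 h. Density rose by 0.97 ± 0.13 (adjusted p = 0.000446) and footprints by 0.77 ± 0.09 (adjusted p = 6.54e-05). At 16 h both footprints (-0.71 ± 0.11, adjusted p = 6.05e-05) and input (-0.67 ± 0.08, adjusted p = 1.06e-05) fell, and density differed by 0.04 ± 0.16 from the fitted untreated value (adjusted p = 0.951). The early density call was lost without the untreated pair (0.85, adjusted p = 0.329), and it was the 1 density call that a linear time term kept.

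Eif3h (chr15:51786558-51865523, minus strand), the partner of eIF3f in the MPN pair of the complex, rose in footprints from 274 CPM untreated through 371, 412, 427, 476 and 486 to 497 at 90 min, and stood at 284 at 16 h. Its input ran from 322 CPM untreated through a low of 266 at 30 min to 316 at 90 min and 309 at 16 h. The density change was 0.91 ± 0.13 (adjusted p = 0.000574) and the footprint change 0.76 ± 0.10 (adjusted p = 7.01e-05). The small input decrease (-0.20 ± 0.07, adjusted p = 0.0497) lost its call under DESeq2 and with any of 7 of the 8 time points left out, and was 0.025 with a linear time term. Its density call was lost without the untreated pair (0.52, adjusted p = 0.832) and with a linear term alone (0.71, adjusted p = 0.155). At 16 h Eif3h was at 0.06 in input, -0.02 in footprints and 0.003 in density against the fitted value at 0 min (adjusted p = 0.556, 0.92 and 0.997). Between the untreated and 16 h libraries themselves the signs were the other way, 322 to 309 CPM in input and 274 to 284 CPM in footprints.

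Eif3e, the fourth textbook TOP member, moved less. Footprints were 460 CPM untreated, 555 to 710 from 15 to 90 min and 443 at 16 h, a rise of 0.51 ± 0.10 (adjusted p = 0.00511, but 0.0783 under total counts and 0.223 without the untreated library). The density change of 0.53 ± 0.12 missed the threshold (adjusted p = 0.0773), and input changed by 0.08 ± 0.08 (adjusted p = 0.389). At 16 h Eif3e was at 0.04 in input, -0.10 in footprints and -0.07 in density against the fitted value at 0 min, none past the threshold. The input libraries themselves were at 546 CPM untreated and 520 at 16 h.

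The other 2 mRNAs whose density rose are not on that short TOP list, which does not make them non-TOP mRNAs. Eif4a2 encodes the second eIF4A paralogue, and its input and footprints went in opposite directions: input fell from 152 CPM untreated to 120 at 90 min (-0.36 ± 0.08, adjusted p = 0.00829), while footprints were 50.1 CPM untreated and 67.6 to 78.3 from 15 to 90 min (0.48 ± 0.13, adjusted p = 0.0425). Its density rose by 0.77 ± 0.15 (adjusted p = 0.0172). Eif3k, the shortest of the 12 by coding length (218 codons), had 269 CPM of footprints untreated and 363 at 75 min (0.38 ± 0.08, adjusted p = 0.0111), and its density rose by 0.60 ± 0.12 (adjusted p = 0.0182). Under DESeq2 the calls for Eif3f, Eif3h and Eif4b held and those for Eif4a2 (adjusted p = 0.185) and Eif3k (adjusted p = 0.112) were lost, as they were with a linear time term alone (0.145 and 0.13), under total counts (0.0575 and 0.0701), without the untreated pair (0.96 and 0.877) and without the 75 min pair (0.0595 and 0.0765). Leaving out the 60 min pair also ended the density call of Eif4a2 (0.0603), and leaving out the 15 or 45 min pair that of Eif3k (0.093 and 0.0563). The footprint call of Eif4a2 did not hold under DESeq2 (0.133), under total counts (0.072), with a linear term (0.351) or without the untreated (0.778), 15 (0.0518), 60 (0.0671) or 75 min library (0.0723), and its input call did not hold without the untreated library (0.0761). The footprint call of Eif3k was lost under total counts (0.19) and without the untreated library (0.226).

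**Figure D2:**
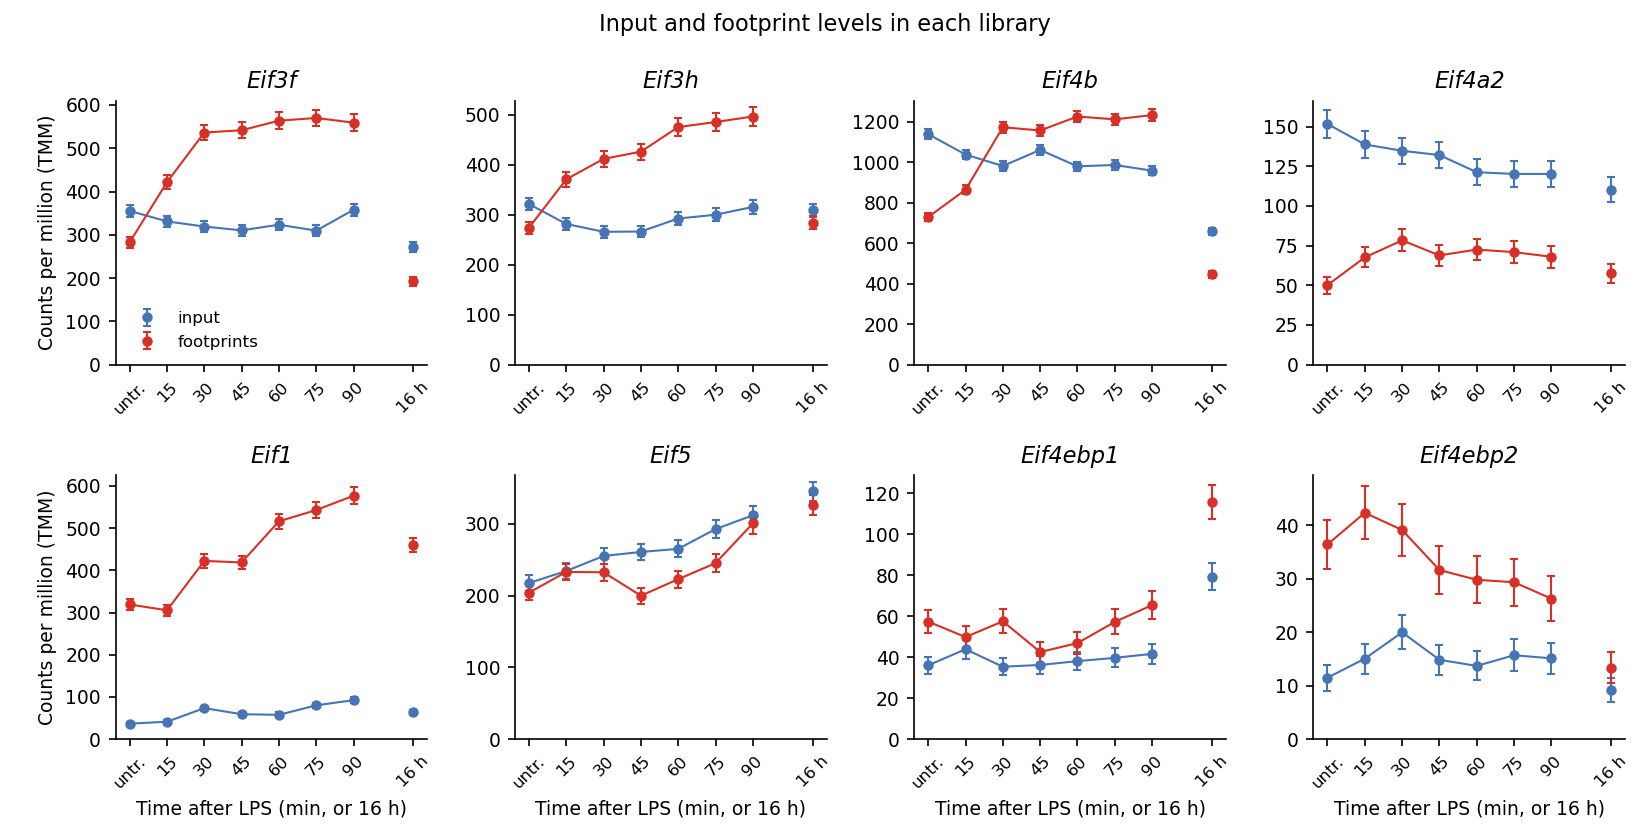
Level in CPM (y axis, from 0) of 8 mRNAs in each input (blue) and footprint (red) library against time (x axis, minutes or 16 h); bars are approximate 95% counting intervals and each point is 1 library. For Eif3f, Eif3h and Eif4b the footprint line is above the input line from 30 to 90 min and below it in untreated cells and at 16 h, Eif4ebp2 footprints end at 13.4 CPM, and Eif4ebp1 input is highest at 16 h, at 79.4 CPM.

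Because TOP tracts sit at the cap, the first bases of these mRNAs were read from RefSeq at the annotated starts (GRCm38.p6, 30 bases, 5′ to 3′ on the transcript's strand). Capitals mark a C followed by 4 or more bases that are C or T, on the transcript's strand only. Matches that began within 2 bases of the start were taken first. Where there was none, the first match from 5 bases before to 15 bases after the start was taken, with no base beyond these read. The 4 mRNAs with raised density that have an entry are shown because this search gave different results for them, and the 2 genes of eIF2 gamma because they carry long tracts without a density call:
Eif3f, chr7:108934410-108934439: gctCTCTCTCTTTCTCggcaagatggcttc
Eif4b, chr15:102073768-102073797: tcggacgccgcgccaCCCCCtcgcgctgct
Eif3k, chr7:28981864-28981893: gcgctggtgctgaaagcgcctttccctttg
Eif4a2, chr16:23107463-23107492: cccgtaggagcagggcggccgaggagcgcg
Eif2s3x, chrX:94212627-94212656: ttttCCTTTTCTCTCCgagcaagatggctg
Eif2s3y, chrY:1010590-1010619: cagccaCTTCCTTCTTTCgtgagcaagatg
Eif3f carried a 13 nt tract, counted from 2 bases before the annotated start. The c and t printed just before it are pyrimidines too, so the full run is longer. The tract of Eif4b within the searched bases was 5 nt and began 10 bases after the start. It was cut where the search ended, and the t and c printed after it are pyrimidines too. Eif3k and Eif4a2 had no match lying wholly within the searched bases. The pyrimidine run late in the Eif3k line begins inside them, extends past them and was not counted. The difference between Eif3k and Eif4b thus depends on where the search ended. Eif2s3x and Eif2s3y, the X- and Y-linked genes of the eIF2 gamma subunit, had tracts of 12 nt within 2 bases of their starts, and their density changes were 0.15 or less and did not pass the test. In early footprints Eif2s3x was called higher (0.33 ± 0.09, adjusted p = 0.0437), a call not made under total counts or DESeq2. Eif2s3y did not pass there (0.30 ± 0.09, adjusted p = 0.0635). Counts of Eif2s3x are uncertain, since 4.97% of its 29-base coding stretches occurred in no other annotated transcript. Other mRNAs with a tract at the start but no density call had shorter ones and are not shown. Eif3e and Eif3h have no entry in the promoter table.

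Of the 37 initiation factor mRNAs with an entry, 11 (29.7%) had such a tract in the window, close to the 30.2% of 7361 tested genes with an entry. A match that began within 2 bases of the start, also inside a longer run, was present in 8 of the 37 (21.6%), against 12.0% of those tested genes. A match in an annotated window is a description of the reference and not of the caps used in these cells.

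Of the remaining 8 eIF3 subunits, 5 rose in footprints (Eif3a, Eif3c, Eif3d, Eif3i, Eif3l) and 4 in input (Eif3a, Eif3b, Eif3c, Eif3d). Eif3a and Eif3c, which carry the scaffold of the complex, rose in footprints by 0.52 ± 0.10 (adjusted p = 0.00254) and 0.48 ± 0.08 (adjusted p = 0.00118) and in input by 0.34 ± 0.07 (adjusted p = 0.00531) and 0.47 ± 0.07 (adjusted p = 0.000403). Both calls of Eif3c held under every alternative that was run. Those of Eif3a were lost in footprints under total counts (0.0691) and without the untreated library (0.0584), and in input without the 90 min library (0.092). Eif3d, which can itself bind the cap, went from 351 CPM of footprints untreated to 502 at 90 min (0.50 ± 0.09, adjusted p = 0.00156, but 0.072 under total counts). Its input rise of 0.31 ± 0.08 (adjusted p = 0.0167) was lost under total counts and without the 15, 75 or 90 min library, at 0.0503 to 0.0974.

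Eif3b, another scaffold subunit, rose in input (0.40 ± 0.08, adjusted p = 0.00315, and 0.206 without the 90 min library) and was at 0.23 in footprints, which did not pass (adjusted p = 0.0826) and was -0.15 under total counts. Eif3l and Eif3i were called higher in footprints at 0.34 (adjusted p = 0.0359) and 0.30 (adjusted p = 0.0441). Both calls were lost under total counts (0.406 and 0.436), with a linear term (0.0555 and 0.0702) and without the untreated library (0.397 and 0.565), and without any of 4 other libraries for Eif3l and 5 for Eif3i. Eif3g and Eif3m did not pass there, at 0.19 and 0.27.

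The genes of the ternary-complex branch showed no density call. Eif2s2, the beta subunit of eIF2, rose in footprints from 749 CPM untreated to 1131 at 90 min (0.56 ± 0.11, adjusted p = 0.00198, but 0.23 without the 90 min library) and in input from 417 to 514 CPM (0.37 ± 0.08, adjusted p = 0.0074), and stayed high at 16 h with 1101 CPM of footprints. Eif2s1, the alpha subunit on which stress kinases act, had 581 CPM of footprints untreated and 736 at 90 min, which did not pass (0.26 ± 0.09, adjusted p = 0.0695), and its density change was -0.07 ± 0.12 (adjusted p = 0.959). At 16 h Eif2s1 was lower in input (-0.29 ± 0.09, adjusted p = 0.0113, and 0.154 without the untreated library) and in footprints (-0.37 ± 0.11, adjusted p = 0.0115), with a density difference of 0.003 ± 0.15 (adjusted p = 0.997). Of the 5 eIF2B subunits, Eif2b3 rose in footprints over 0 to 90 min (0.41 ± 0.09, adjusted p = 0.00941) and in input (0.38 ± 0.09, adjusted p = 0.0048), and the other 4 passed in neither. Its footprint call was lost under total counts (0.348) and without the untreated library (0.0757), and its input call without the 90 min library (0.0568).

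Of the cap-binding factors, Eif4a1, Eif4e and Eif4g1 rose in input, and Eif4a1 and Eif4e also in footprints. Eif4a2, described above, fell in input and rose in footprints. Eif4a1, the main eIF4A helicase and the eIF4 mRNA with the most footprints per codon, went from 1874 to 2651 CPM of input between untreated cells and 90 min and from 2932 to 4285 CPM of footprints. The input rise was 0.56 ± 0.07 (adjusted p = 0.000282) and the footprint rise 0.63 ± 0.09 (adjusted p = 0.000191), with a density change of 0.12 ± 0.13 (adjusted p = 0.93). Eif4e, the cap-binding protein, rose by 0.46 ± 0.08 at the input level (adjusted p = 0.00231) and by 0.25 ± 0.09 in footprints (adjusted p = 0.0315). Footprints of Eif4e were 351 CPM untreated, lower at 15, 30 and 45 min (321, 326 and 311) and 408 at 90 min. That footprint call did not hold with a linear term (0.146) or without the untreated (0.0539), 15 (0.0801), 45 (0.121) or 75 min library (0.0612), and the value was -0.12 without the 90 min library and -0.23 under total counts. Eif4g1, the scaffold, rose in input from 747 to 1030 CPM (0.42 ± 0.06, adjusted p = 0.000769), and its footprints changed by 0.29 ± 0.11 (adjusted p = 0.0841). Density changes of Eif4e (-0.22) and Eif4g1 (-0.25) did not pass.

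Eif4g2 encodes DAP5, an eIF4G relative without the eIF4E-binding region, and its mRNA begins translation at a GTG (GUG) codon. Input rose from 1300 CPM untreated to 1976 at 90 min and 2276 at 16 h, which is a change of 0.51 ± 0.09 early (adjusted p = 0.00301) and 0.83 ± 0.11 at 16 h (adjusted p = 2e-05). Footprints were 660 CPM untreated, 571 to 713 up to 90 min and 1010 at 16 h. The footprint change was 0.14 ± 0.09 early (adjusted p = 0.0851) and 0.65 ± 0.10 at 16 h (adjusted p = 6.37e-05). Density was at -0.41 ± 0.13 early (adjusted p = 0.377) and -0.10 ± 0.16 at 16 h (adjusted p = 0.874).

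The 4 eIF4E-binding genes, of which Eif4ebp3 was poorly counted, had a negative median density change, -0.36 over 0 to 90 min, with no call. It was -0.14 with a linear term alone and -0.01 without the untreated pair. Eif4ebp2 was the 1 mRNA of the 47 that fell in footprints during the first 90 min (-0.63 ± 0.15, adjusted p = 0.0196), a call that DESeq2 did not make (adjusted p = 0.0995) and that was lost without the 15 (0.0938), 75 (0.0525) or 90 min library (0.0899). Its footprints were 36.4 CPM untreated, 42.3 at 15 min, 39.1 at 30 min, 31.6 at 45 min, 29.8 at 60 min, 29.3 at 75 min, 26.3 at 90 min and 13.4 at 16 h. Input ranged from 9.18 to 20.0 CPM over the 8 libraries. Every footprint library from 45 min on lay below the first 3, and the 16 h library was lowest.

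At 16 h the footprints of Eif4ebp2 were lower by 1.55 ± 0.20 log2 (adjusted p = 9.2e-06), the largest decrease among the 47, while input changed by -0.40 ± 0.29 (adjusted p = 0.26). Its density value of -1.09 ± 0.30 at 16 h did not pass (adjusted p = 0.161), nor did the early one of -0.77 ± 0.23 (adjusted p = 0.247). Eif4ebp1, which encodes 4E-BP1, took the opposite course: input was 35.4 to 43.9 CPM up to 90 min and 79.4 at 16 h, and footprints were 42.6 to 65.5 and then 116. Its 16 h rise was 1.11 ± 0.14 for input (adjusted p = 1.46e-05) and 0.98 ± 0.15 for footprints (adjusted p = 5.87e-05), and no early change passed (0.06 in input, -0.30 in footprints, -0.26 in density). Eif4ebp3 had as few as 6 counts in a footprint library and at most 4.94 CPM of footprints, too few to place. Eif4enif1, the eIF4E transporter 4E-T, fell in footprints at 16 h (-0.38 ± 0.14, adjusted p = 0.0281), a call that did not hold under DESeq2 (0.104), with a linear term (0.137) or without the untreated library (0.548).

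Among the factors of start codon choice, Eif1, the monitor of start codon fidelity, had the largest early input value, 1.15 ± 0.30, with scatter about the curve that kept it from passing (adjusted p = 0.0867). Input was 36.8 CPM untreated, 41.4 at 15 min, 73.6 at 30 min, 59.2 at 45 min, 57.7 at 60 min, 80.2 at 75 min, 92.5 at 90 min and 63.8 at 16 h. Footprints rose from 319 CPM untreated to 577 at 90 min (0.95 ± 0.11, adjusted p = 3.47e-05) and stood at 460 at 16 h (0.61 ± 0.12, adjusted p = 0.000655). Density changes of -0.22 early and -0.12 at 16 h did not pass.

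Eif5, the GTPase activator of eIF2 and the counterpart of eIF1 in start codon choice, rose in input from 217 CPM untreated to 312 at 90 min (0.46 ± 0.07, adjusted p = 0.000952) and 345 at 16 h (0.73 ± 0.08, adjusted p = 3.96e-06). Its footprints, 204 CPM untreated, were 200 at 45 min, 300.4 at 90 min and 326 at 16 h. The early footprint change was 0.36 ± 0.12 (adjusted p = 0.0281); it was -0.45 (adjusted p = 0.0104) when the untreated library was left out and -0.17 (0.119) under total counts, and the call was lost with the square root of time (0.163), under a linear curve (0.0749) and without the 45 (0.0831), 75 (0.0539) or 90 min library (0.726). At 16 h footprints rose by 0.56 ± 0.14 (adjusted p = 0.00262), which did not pass once the untreated library was left out (adjusted p = 0.425), and density values were -0.26 early and -0.09 at 16 h.

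The start codon contexts of Eif1 and Eif5 are shown because start codons in poor surroundings, the main one of Eif1 and upstream ones of Eif5, are known to let eIF1 and eIF5 control their own synthesis. Those of Eif1b, Eif4g2 and Eif3f are set beside them. Capitals mark the start codon, with 9 bases before and 6 after, from the GENCODE M21 annotation of GRCm38:
Eif1: tcgtatcgtATGtccgct
Eif1b: tagtgtcgcATGtccact
Eif5: taagccaaaATGtctgtc
Eif4g2: gccgccaaaGTGgagagt
Eif3f: ctcggcaagATGgcttct
Eif1 and Eif1b have a pyrimidine 3 bases before the start codon, as do Eif3b, Eif4h and Eif6, which are not shown. A purine stood there in 42 of the 47 mRNAs (89.4%), beside 87.2% of 8959 tested genes, and a purine there together with a G just after the codon in 42.6% against 47.5%.

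Eif1a, a paralogue of the X-linked Eif1ax, rose in input (0.81 ± 0.16, adjusted p = 0.0089) and in footprints, from 65.9 CPM untreated to 126 at 90 min (0.91 ± 0.11, adjusted p = 5.84e-05). Eif6, the factor that keeps the large subunit from joining too early, rose in input (0.59 ± 0.09, adjusted p = 0.00053) and footprints (0.65 ± 0.11, adjusted p = 0.00141), and was still higher at 16 h by 0.60 ± 0.10 and 0.62 ± 0.13 (adjusted p = 0.000141 and 0.000669). Density of Eif6 changed by 0.11 ± 0.13 early and 0.10 ± 0.15 at 16 h, neither past the threshold. Eif2a, the factor that can deliver tRNA without eIF2, rose in footprints from 159 CPM untreated to 247 at 60 min (0.55 ± 0.11, adjusted p = 0.00659), a call lost with a linear term (0.219) and without the untreated library (0.62). Its density value was 0.52 ± 0.14 (adjusted p = 0.164).

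At 16 h, against the fitted value at 0 min, the mRNAs split in both directions in both materials. Footprints of 10 mRNAs were higher and of 17 lower, beside 26.0% and 24.6% of all tested genes, with a median of -0.14 against 0.00. Input of 9 was higher and of 14 lower, beside 28.3% and 27.0%, with a median of -0.06 against 0.01. Of the 9 higher in input, 7 were among the 10 higher in footprints, and of the 14 lower in input, 9 were among the 17 lower in footprints. These overlaps were not counted over all tested genes, so they are not shown to be particular to the initiation factor mRNAs. Total counts gave 6 higher and 22 lower in input and 9 and 21 in footprints, and without the untreated library input had 7 and 7.

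The higher set at 16 h included Eif4ebp1, Eif4g2, Eif5, Eif6, Eif3c and Eif2s2. Eif3c was the 1 eIF3 subunit called higher, with 0.70 ± 0.08 for input (adjusted p = 4.41e-06) and 0.46 ± 0.10 for footprints (adjusted p = 0.000806). Eif2s2 was higher by 0.70 ± 0.10 in input and 0.58 ± 0.13 in footprints (adjusted p = 2.62e-05 and 0.00163). The lower set held Eif4a3, a helicase of the exon junction complex, at -0.86 ± 0.11 for input (adjusted p = 1.36e-05) and -0.73 ± 0.11 for footprints (adjusted p = 3.79e-05), and Eif4h, a further eIF4A cofactor, at -0.44 ± 0.08 and -0.53 ± 0.11 (adjusted p = 0.000311 and 0.000639). Eif1b was at -0.76 ± 0.17 in input and -0.82 ± 0.16 in footprints (adjusted p = 0.00193 and 0.000594; the latter was 0.136 without the untreated library), and Eif3l at -0.50 ± 0.08 in input (adjusted p = 0.000166).

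Of the cap-binding factors, Eif4e and Eif4a1 were near their fitted untreated level at 16 h. Eif4e stood at 0.13 ± 0.10 in input and -0.14 ± 0.11 in footprints, and Eif4a1 at 0.11 ± 0.09 and 0.10 ± 0.10, with none of these past the threshold. Eif4g1 was lower in footprints (-0.32 ± 0.13, adjusted p = 0.0435, lost under DESeq2 at 0.0512, with the square root of time at 0.114, under a linear curve at 0.129 and without the 15, 45, 60, 75 or 90 min library, at 0.0539 to 0.0777) and at -0.17 ± 0.08 in input (adjusted p = 0.0701). Eif4a2 was lower in input (-0.37 ± 0.09, adjusted p = 0.00316, and 0.0682 without the untreated library) and at 0.10 ± 0.15 in footprints (adjusted p = 0.623).

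No density difference at 16 h passed for any of the 47 in edgeR, beside 0.378% of all tested genes higher and 0.126% lower. At an unadjusted p below 0.05 there were 5 in edgeR, and DESeq2 called 0 after adjustment. Leaving out the 30 min pair gave 1 call, Eif4ebp2, lower. The median over the 47 was -0.02, beside 0.07 for all genes. Outside the eIF4E-binding genes, values ran from -0.25 (Eif3f) to 0.55 (Eif4a2), with standard errors from 0.13 (Eif3i) to 0.41 (Eif4e3), so differences of the size of these errors were not detectable.

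**Figure D3:**
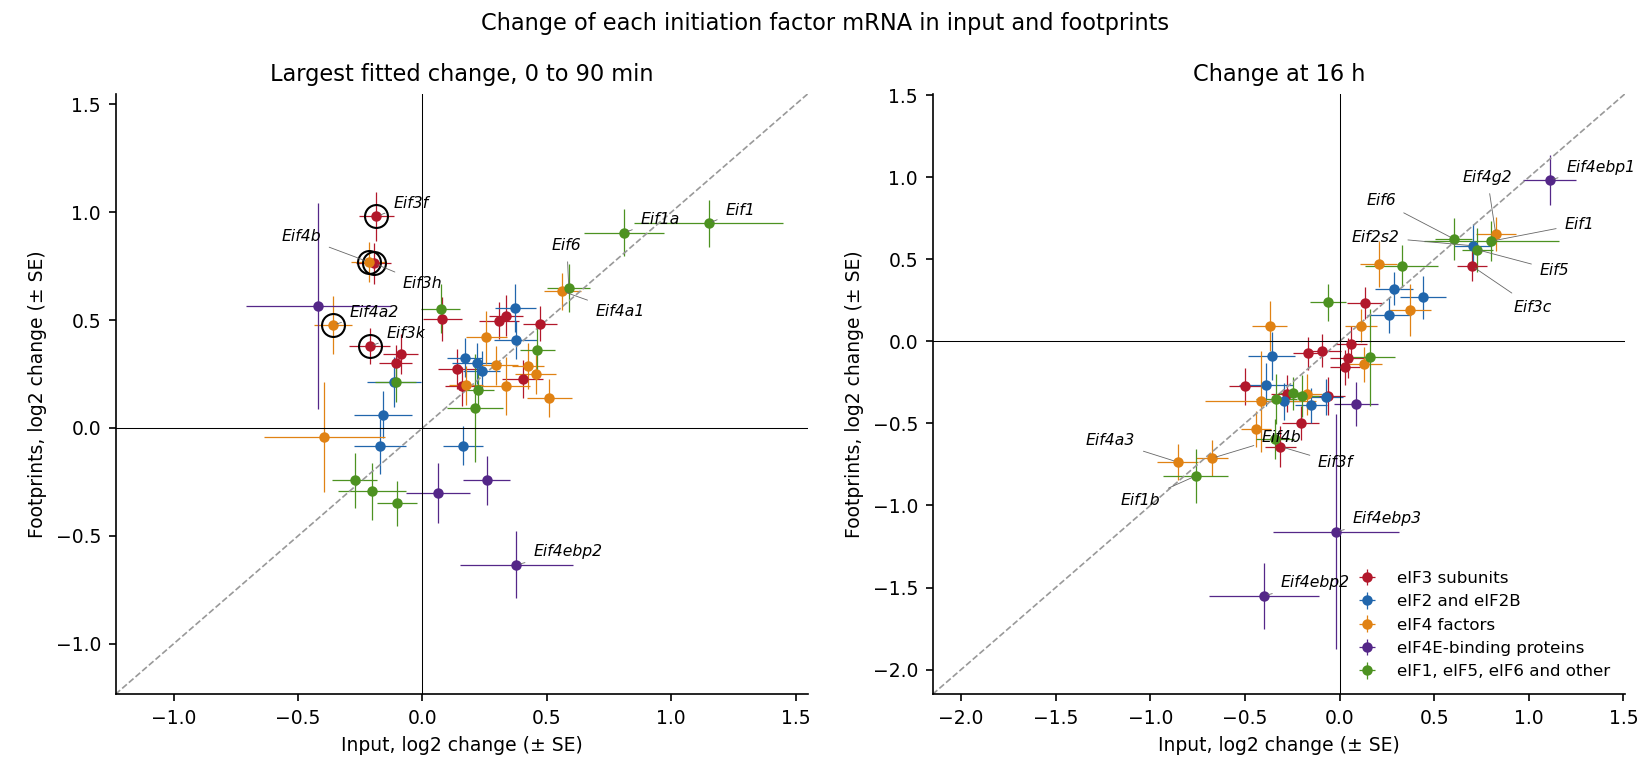
Log2 change with standard error in input (x axis) and footprints (y axis) for each of the 47 mRNAs, coloured by group, for the largest fitted change over 0 to 90 min (left) and for 16 h (right); the dashed line marks equal change and open circles mark the 5 mRNAs whose density rose. On the left the circled mRNAs lie at 0.38 or above in footprints and below 0 in input, and on the right most points follow the dashed line, with Eif4ebp2 and the poorly counted Eif4ebp3 below it.

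Averaged over the 8 time points, initiation factor mRNAs tended to high ribosome density. The mean density level, the footprint to input ratio relative to the typical gene, was above 0 for 33 and below 0 for 9 of the 47, beside 43.6% and 41.5% of all tested genes, with a median of 0.44 against 0.02. All 4 eIF2 genes, 4 of 5 eIF2B subunits and 10 of 12 eIF3 subunits were above 0, and the eIF4 factors were mixed, with 5 above and 4 below. The highest were Eif1 (2.84 ± 0.06), Eif5a (1.83 ± 0.04), which encodes the hypusine-bearing factor that helps ribosomes past poor peptide bonds, Eif5b (1.64 ± 0.05), the GTPase of subunit joining, Eif1ax (1.34 ± 0.05), Eif3g (1.16 ± 0.04) and Eif4ebp2 (1.10 ± 0.10).

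The lowest mean density belonged to Eif4g2 (-1.33 ± 0.05), followed by Eif4a2 (-0.95 ± 0.08), Eif4enif1 (-0.75 ± 0.05), Eif4g3 (-0.72 ± 0.05) and Eif2d (-0.49 ± 0.05). Eif4ebp3, at -1.0 ± 0.21, is left out of that order because its few counts do not place it. The adjusted p was 1.07e-15 for Eif4g2 and 3.91e-08 for Eif4a2. Between the paralogues, Eif4a1 stood at 0.73 ± 0.04 and Eif4a2 at -0.95 ± 0.08. Eif4e was at 0.69 ± 0.04, Eif2s1 at 0.98 ± 0.04, Eif6 at 0.48 ± 0.04, Eif4ebp1 at 0.48 ± 0.06, Eif3h at 0.43 ± 0.13, Eif5 at -0.16 ± 0.04 and Eif4g1 at -0.39 ± 0.04, all past the threshold; that of Eif3h was lost under total counts (adjusted p = 0.0982). Eif3e (0.15), Eif3f (0.44) and Eif4b (-0.01) did not pass, with errors of 0.07 to 0.19 that include their change over time. No source used here gives the features over which reads were counted. Coding sequence made up 25.6% of the annotated Eif1 transcript, 34.0% of Eif4g2 and 6.22% of Eif4ebp2; the part of transcript layout in these levels was not tested.

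**Figure D4:**
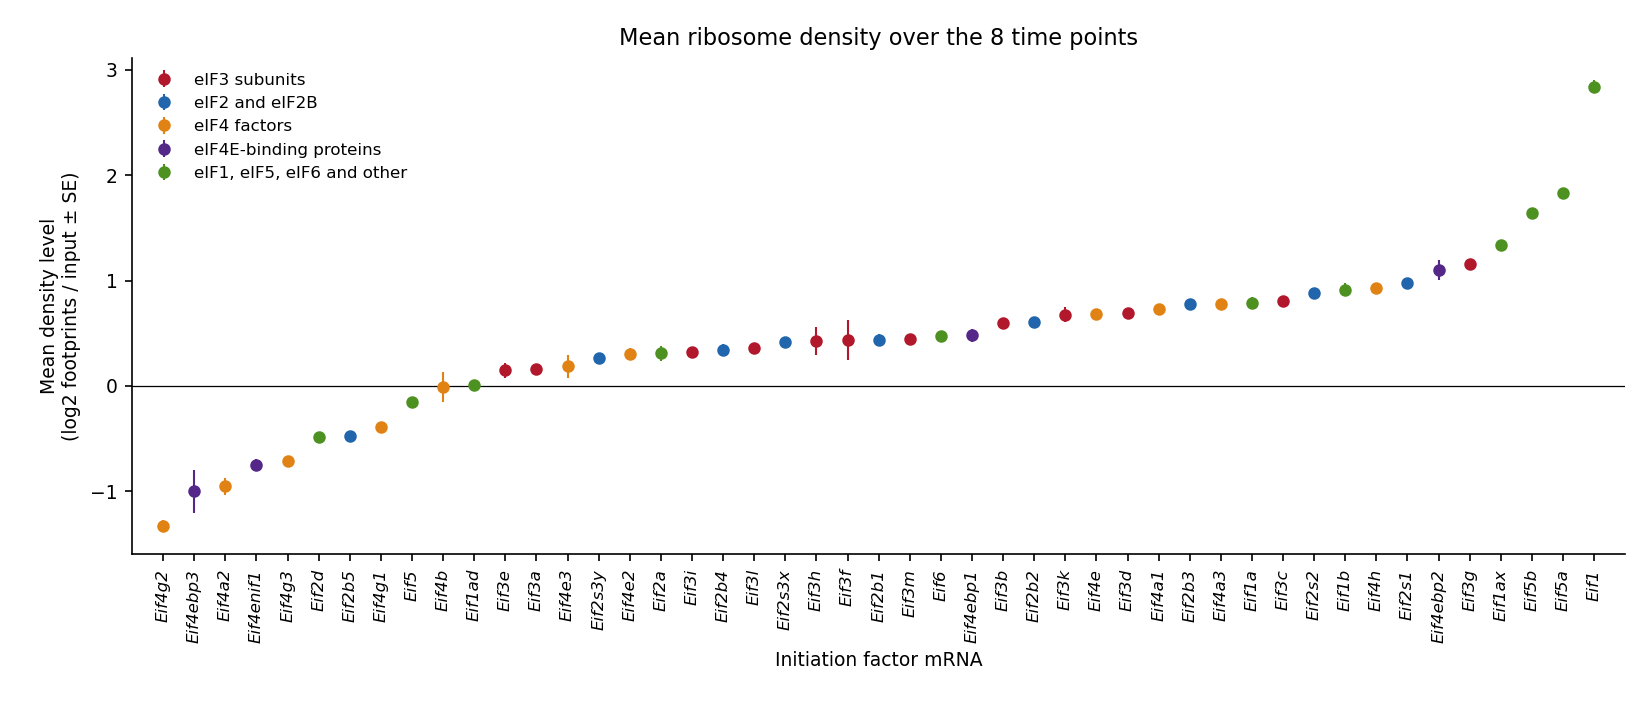
Mean density level (y axis, log2 footprints over input with standard error, relative to the typical gene) of the 47 mRNAs in order (x axis), coloured by group. Eif1 at 2.84 and Eif4g2 at -1.33 are the ends of the range, and 10 of the 12 eIF3 subunits lie above 0 with calls.

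For complexes of fixed composition, footprints per codon give a per-length view of synthesis. Summed over the 8 footprint libraries, the 12 eIF3 subunits ranged from 35.0 counts per codon (Eif3l) to 84.9 (Eif3g), a ratio of 2.43 (95% interval 2.38 to 2.47, counting error only). That ratio was 2.83 in the untreated library, 2.56 at 90 min and 3.01 at 16 h, with a coefficient of variation over subunits of 32.8%, 25.1% and 35.5%. The 5 eIF2B subunits lay between 5.14 (Eif2b4) and 14.3 (Eif2b3) counts per codon, below every eIF3 subunit. The 4 eIF2 genes ran from 13.2 (Eif2s3y) to 128 (Eif2s2). The eIF4 factors ran from 1.91 for the poorly counted Eif4e3 to 432 for Eif4a1, a ratio of 226, and the group of eIF1, eIF5, eIF6 and the rest from 3.92 (Eif2d) to 849 (Eif5a), a ratio of 217.

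Counts of several of these mRNAs are uncertain because near-identical copies exist in the genome. Of the 29-base stretches of the coding sequence, 0.67% of Eif4a1, 0.96% of Eif1, 4.97% of Eif2s3x, 15.1% of Eif2s2 and 20.4% of Eif4e occurred in no other annotated transcript, and no source used here says how such reads were treated. For the 5 mRNAs whose density rose the shares were 98.9% (Eif3f), 99.0% (Eif3k), 84.2% (Eif4b), 58.3% (Eif4a2) and 52.3% (Eif3h).

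**Figure D5:**
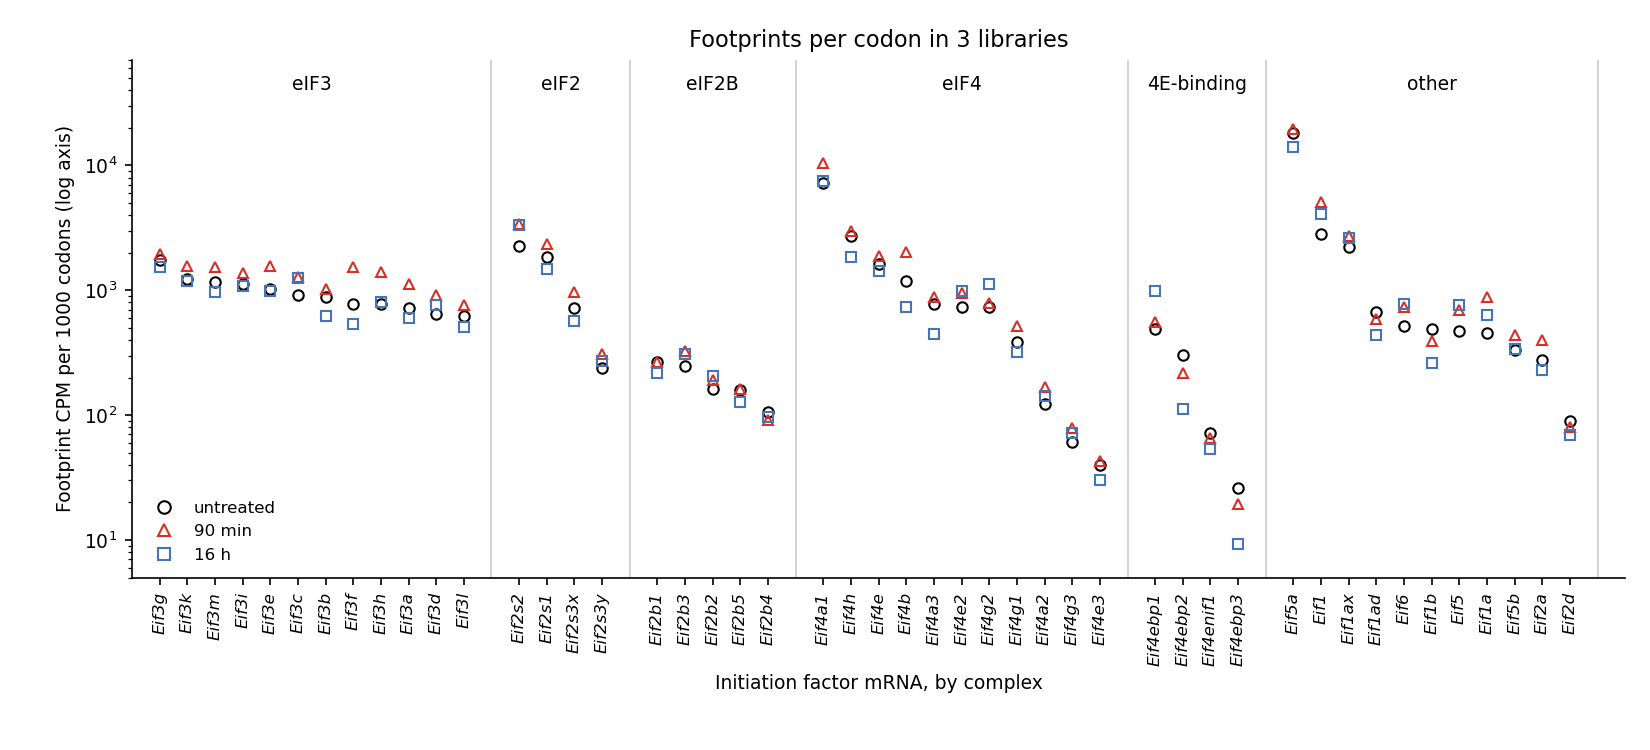
Footprint CPM per 1000 codons (y axis, log scale) of the 47 mRNAs, grouped by complex (x axis), in the untreated, 90 min and 16 h libraries. The 12 eIF3 subunits lie in a band whose highest to lowest ratio is 2.83 untreated, 2.56 at 90 min and 3.01 at 16 h, the eIF4 factors spread over a ratio of 183 to 246, and the group of eIF1, eIF5, eIF6 and the rest over 202 to 247.

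Beyond the factors themselves, 30 of 32 listed genes of initiation and its control were tested (31 are in the table). In footprints 8 rose and 3 fell over 0 to 90 min, where 12.7% and 9.13% of all tested genes did. In density 1 rose and none fell, beside 1.14% and 0.136%. At 16 h 8 rose and 7 fell in footprints, which is 26.7% and 23.3% of the 30 and near the 26.0% and 24.6% of all tested genes. Pabpc1, the cytoplasmic poly(A)-binding protein and itself a textbook TOP mRNA, had the largest early footprint rise of those that passed: 606 CPM untreated, 898, 1189, 1616, 2052, 1887 and 1829 from 15 to 90 min, and 558 at 16 h (1.72 ± 0.09, adjusted p = 1.25e-08). Its input was erratic, between 1078 and 1745 CPM, and its density value of 1.49 ± 0.35 did not pass (adjusted p = 0.354). The relative Pabpc4 rose in footprints from 105 to 191 CPM at 90 min (0.75 ± 0.12, adjusted p = 0.000443) with input between 257 and 303 CPM up to then, and its density rose by 0.79 ± 0.13 (adjusted p = 0.00345, but 0.905 without the untreated pair and 0.311 with a linear term). Its footprint call was also lost without the untreated library (0.181).

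Among genes that control eIF2, Ppp1r15a (GADD34), the stress-induced subunit that dephosphorylates eIF2 alpha, had 14.6 CPM of input untreated, 28.6 at 15 min, 559 at 30 min, 634 at 45 min, 236 at 60 min, 102 at 75 min, 73.2 at 90 min and 140 at 16 h. Footprints of Ppp1r15a were 0.88 CPM untreated, 39.0 at 45 min and 29.1 at 16 h. Such a peak is not followed by a smooth curve, and its early changes did not pass (adjusted p = 0.126 in input and 0.0998 in footprints). At 16 h its footprints were called higher by 4.67 ± 1.31 (adjusted p = 0.0425), a call lost with no filter, with the square root of time, under a linear curve and without the untreated, 15, 45, 60 or 75 min library (0.0565 to 0.67). Its mean density level was -3.59 ± 0.23 (adjusted p = 1.34e-06), far below that of any initiation factor mRNA. Eif2ak3, the kinase PERK, fell in input from 38.9 CPM to 16.0 at 90 min (-1.49 ± 0.15, adjusted p = 2.78e-05) and in footprints (-1.67 ± 0.29, adjusted p = 0.00137), and Ppp1r15b rose in both, by 0.56 ± 0.07 and 0.86 ± 0.16 (adjusted p = 0.000286 and 0.0033).

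At 16 h the kinase gene Eif2ak2 (PKR), an interferon-induced sensor of double-stranded RNA, rose from 56.1 to 306 CPM of input (2.56 ± 0.10, adjusted p = 1.1e-10) and 77.7 to 423 CPM of footprints (2.44 ± 0.11, adjusted p = 3.09e-11). Denr, a partner in reinitiation, rose by 1.24 ± 0.10 and 1.17 ± 0.13 (adjusted p = 9.53e-08 and 1.42e-06). Pdcd4, an inhibitor of eIF4A, fell at 16 h by 1.16 ± 0.36 in input (adjusted p = 0.0181) and its footprints fell by 1.59 ± 0.20, from 42.2 to 14.2 CPM (adjusted p = 5.15e-06). Its early footprint decrease was 0.54 ± 0.15 (adjusted p = 0.0361, but 0.172 under DESeq2 and 0.0583 to 0.131 with the untreated, 15, 45, 60 or 75 min library left out).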

How the data were processed

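Ribosome footprints and input RNA of RAW264.7 cells were measured at 8 time points, 1 library each. The authors deposited whole-number counts per gene, and, per the file headers, a normalised signal in which each count is scaled by its library's size factor; the signal was used only to check the counts. Bowtie 0.12.8, DESeq2 1.18.1 and mm10 are named in the submitters' processing notes; no source used here gives the counted features, strand or treatment of multiple matches. Counts were tested with edgeR 4.0.16 in R 4.3.3 (robust quasi-likelihood fits, TMM within each material; over all 16 libraries for density), with linear and quadratic terms in minutes and a 16 h term; density is the material by time interaction with the time point as a block. Adjusted p-values are edgeR's over 9529 genes unless DESeq2 1.42.0 is named. These fits have 4 residual degrees of freedom (7 for the mean density level), so p-values measure scatter about a curve between single libraries, and the 16 h library is assumed to vary like the rest. Members and gene lists were chosen with earlier results of these data known. Named genes are up to 6 called in each direction per contrast by size, the cap-binding, 4E-binding, start codon and TOP genes listed for this work, and up to 4 called other initiation genes per contrast with Ppp1r15a, Pdcd4 and Pabpc1. The other eIF3 subunits in early footprints and input, Eif2a, Eif2b3, Eif2s2, Eif2s3x, Eif2s3y, Eif4enif1, and Eif3c and Eif4h in footprints at 16 h were named after their values were seen. Codon numbers and 29-base uniqueness come from GENCODE M21, since no protein table was used here, and start windows from RefSeq. The scripts were tested on simulated data. Alternatives covered scaling, tool, filter, time curve, block and each time point left out.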

Additional observations from a re-analysis of the deposited data

How the results depend on the processing

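Libraries could not be paired across times, because each group holds 1 library and no replicate numbers link them. Pairing was by lysate, within a time point. Density sets both materials of 1 lysate against each other blocked by time point, and a fit with no block left 5 density calls over 0 to 90 min and 0 at 16 h. Each count of called mRNAs was recomputed under the alternatives. Leaving out each time point in turn gave 11 to 22 calls for early input (17 in the report), 14 to 29 for input at 16 h (23), 13 to 32 for early footprints (23), 0 to 11 for early density (5) and 0 to 1 for density at 16 h (0). Early density also gave 3 calls under total counts, 3 under DESeq2 and 1 with a linear term alone. The other total counts of called mRNAs lay within 1.5 times the reported ones, but splits and group counts moved more: early footprints went from 22 higher and 1 lower to 10 and 8 under total counts, and eIF3 from 9 higher to 3 there and 4 without the untreated library. One TMM scaling over all libraries was chosen after seeing the data. Equal totals hide the original depth, and mRNAs with few counts (Eif4ebp3, Eif4e3) cannot be placed. Where a value changed sign, the cause was not tested.

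Log2 values that changed sign under total counts were, for early input, Eif3e -0.12 and Eif4ebp1 -0.10, for input at 16 h, Eif3e -0.12, Eif3h -0.10, Eif4a1 -0.050 and Eif4e -0.034, for early footprints, Eif2s1 -0.13, Eif3b -0.15, Eif3g -0.21, Eif4e -0.23, Eif4g1 -0.13, Eif4g2 -0.28 and Eif5 -0.17, for footprints at 16 h, Eif4a1 -0.003 and Eif4a2 -0.002, for early density, Eif2s3y -0.084, Eif4a1 -0.055, Eif6 -0.070 and Ppp1r15a -0.19, for density at 16 h, Eif2s1 -0.011 and Eif3h -0.011, and for mean density, Eif3e -0.072. With the square root of time they were Eif3e -0.12 and Pdcd4 0.28 (early input), Eif4g2 -0.20 (early footprints), Eif3h 0.056 (footprints at 16 h), Eif2s1 0.014 and Ppp1r15a -0.19 (early density) and Eif3e 0.016 (density at 16 h). With a linear term they were Eif3h 0.025 and Ppp1r15a -0.036 (early input), Ppp1r15a -0.70 (input at 16 h), Eif4ebp1 0.14 (early footprints), Eif4a2 -0.10 (footprints at 16 h), Eif2s1 0.017 and Eif4ebp1 0.054 (early density) and Eif3h -0.27, Eif4b -0.18, Eif4ebp1 0.10, Eif4g1 0.024 and Eif5 0.032 (density at 16 h). One TMM scaling gave Eif3e -0.037 and Eif3h -0.020 for input at 16 h. DESeq2 size factors and the DESeq2 test each gave Eif2s1 -0.017 and Eif3h -0.017 for density at 16 h, and the test gave Ppp1r15a -0.21 for early density. No filter gave Eif4b 0.022 for mean density, and no time-point block gave Ppp1r15a -0.80 for early density.

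Leaving out each time point, the ranges that crossed 0 were as follows. Early input had Eif3e -0.12 to 0.16, Eif3h -0.24 to 0.13, Eif4ebp1 -0.42 to 0.20, Eif4ebp2 -0.25 to 0.53, Pabpc1 -0.53 to 0.41 and Pdcd4 -0.72 to 0.23, and input at 16 h had Pabpc1 -0.22 to 0.46. Early footprints had Eif2s1 -0.14 to 0.29, Eif3g -0.086 to 0.24, Eif4e -0.12 to 0.29, Eif4g1 -0.19 to 0.34, Eif4g2 -0.19 to 0.21 and Eif5 -0.45 to 0.45. Footprints at 16 h had Eif3h -0.24 to 0.040, Eif4a2 -0.22 to 0.15 and Pabpc1 -0.10 to 0.050. Early density had Eif1 -0.39 to 0.36, Eif2s1 -0.26 to 0.076, Eif4ebp1 -0.37 to 0.30, Pdcd4 -0.48 to 0.40 and Ppp1r15a -0.48 to 0.59. Density at 16 h had Eif1 -0.20 to 0.20, Eif2s1 -0.30 to 0.042, Eif3h -0.47 to 0.069, Eif4a1 -0.11 to 0.075, Eif4b -0.22 to 0.073, Eif4ebp1 -0.19 to 0.047, Eif4g2 -0.15 to 0.083 and Pabpc1 -0.48 to 0.18. Mean density had Eif4b -0.064 to 0.12.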
